A study of Homo sapiens with 4 samples.

Results

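The MAP kinase phosphatases of the DUSP family are the phosphatases that switch off MAP kinases. The 9 genes described here, DUSP1, DUSP2, DUSP4, DUSP5, DUSP6, DUSP7, DUSP8, DUSP10 and DUSP16, were taken by symbol from a table of 16376 genes, and all 9 were listed. Poly(A)-selected RNA was sequenced from the human colon cancer line HCT116, in 2 untreated samples (Control) and 2 samples exposed to hydrogen peroxide (H2O2), an oxidant that enters cells. The labels used here give neither dose nor exposure time, and they do not say whether replicates were grown as separate cultures. The p-values therefore cover only the spread between these samples, which may be technical. The table holds group means, and the whole read counts of its 4 libraries were solved from those means. The libraries are called the deeper and the shallower of each group because the table carries no replicate numbers. Its columns name a group A and a group B. Reading A as Control follows the word order of the comparison's name, and every direction below depends on it.

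MAP kinases (ERK, JNK and p38) are activated when a kinase upstream adds phosphate to a threonine and a tyrosine in their activation loop. A MAP kinase phosphatase removes both phosphates, after docking to the kinase through a domain at its amino end. Several of these genes are themselves transcribed in response to MAP kinase signalling, which makes them feedback inhibitors, and DUSP1 and DUSP2 are classed with the immediate early genes. The family is usually sorted by place and target: DUSP1, DUSP2, DUSP4 and DUSP5 are nuclear, DUSP6 and DUSP7 are cytoplasmic and prefer ERK, and DUSP8, DUSP10 and DUSP16 prefer JNK and p38. The catalytic cysteine of such phosphatases can be oxidised by peroxide, a change in the protein that RNA counts do not measure.

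The 250 bases before the annotated start are shown first for DUSP1, DUSP2 and DUSP8, the 3 members with a matched promoter that passed the threshold of the authors' test. Sequences are from RefSeq, build GRCh38.p14, all on the minus strand and printed 5′ to 3′ up to the base before the start. They lie at chr5:172771196-172771445 (DUSP1), chr2:96145441-96145690 (DUSP2) and chr11:1572272-1572521 (DUSP8). Capitals mark matches to the cAMP response element TGACGTCA, bound by CREB and ATF proteins, to its core TGACG alone, and to the E-box CACGTG.
DUSP1: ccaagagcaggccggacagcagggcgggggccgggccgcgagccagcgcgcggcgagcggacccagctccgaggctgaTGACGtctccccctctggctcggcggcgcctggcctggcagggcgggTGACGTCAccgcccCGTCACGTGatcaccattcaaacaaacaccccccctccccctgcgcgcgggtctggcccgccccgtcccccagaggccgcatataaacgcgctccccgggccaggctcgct
DUSP2: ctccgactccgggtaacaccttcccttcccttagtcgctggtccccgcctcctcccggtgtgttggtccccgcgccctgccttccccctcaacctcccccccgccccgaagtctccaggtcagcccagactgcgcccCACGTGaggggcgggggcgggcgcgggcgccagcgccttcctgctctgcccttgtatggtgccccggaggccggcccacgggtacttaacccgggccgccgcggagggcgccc
DUSP8: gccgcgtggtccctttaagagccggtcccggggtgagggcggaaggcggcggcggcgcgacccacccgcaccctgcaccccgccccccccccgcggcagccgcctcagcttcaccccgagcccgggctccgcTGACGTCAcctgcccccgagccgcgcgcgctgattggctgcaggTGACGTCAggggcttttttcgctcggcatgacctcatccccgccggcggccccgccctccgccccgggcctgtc

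DUSP1 held 1 full cAMP response element, starting 125 bases before the start, and DUSP8 held 2, starting 118 and 74 bases before it. Of all 35116 RefSeq promoter windows of the same length (250 bases before to 50 after a start, both strands), 1.85% held at least 1 such element and 0.0598% held 2 or more. DUSP1 also held the core TGACG 172 bases before the start and, on the opposite strand, 111 bases before it, where it runs into an E-box that begins 108 bases before the start. The core also lies inside each full element, and 24.6% of all windows held it. DUSP2 held no match to the full element or its core. Its 1 match was an E-box 113 bases before the start, a motif in 7.26% of all windows. Windows were matched for 7 of the 9 members, 8 windows in all because DUSP10 has a pair of starts, and DUSP4 and DUSP5 were not matched. The windows of DUSP6, DUSP7 and DUSP16 held none of these motifs, and of the DUSP10 windows 1 held the core, 4 bases before its start. No window of a member held the AP-1 site TGANTCA (7.71% of all windows), the ETS core CCGGAA (17.2%) or a CArG box, the site of serum response factor (1.29%). These matches describe letters in a window and were not set against binding data.

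**Figure D1:**
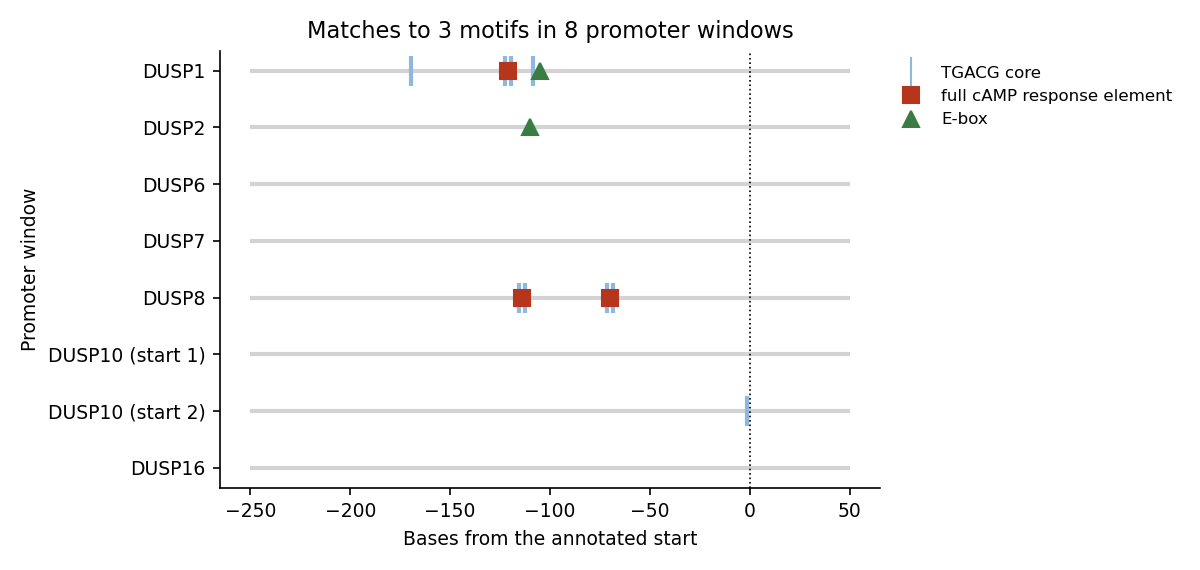
Positions of 3 motifs in the 8 promoter windows of 7 members, with bases from the annotated start on the horizontal axis and a dotted line at the start. Red squares are full cAMP response elements, blue bars the core TGACG and green triangles E-boxes; the full elements are in the DUSP1 and DUSP8 windows, and DUSP2 holds a lone E-box.

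With H2O2, transcripts of DUSP1, DUSP2, DUSP5 and DUSP8 were higher, and those of DUSP4, DUSP6, DUSP7, DUSP10 and DUSP16 did not pass the threshold. At an adjusted p under 0.05, 4 of 9 members were higher and none lower per the authors' deposited table, beside 2.58% of all listed genes called higher, 4.62% called lower and 7.19% called in either direction. Before adjustment, 6 members had p under 0.05 in the authors' test, all higher, beside 7.72% of all genes higher and 19.6% in either direction by that rule, and 0 were lower there or in limma. The authors' deposited table gives the 9 genes a median log2 fold change of 0.58, and all 16376 genes 0.00029. The median of the 9 was 0.36 with the deeper H2O2 library left out and 0.31 with the shallower left out. In 7 members both H2O2 libraries lay above both Control libraries, a pattern that 26.3% of all genes showed (25.6% showed the reverse), and in the other 2 the groups overlapped. limma, a linear model fitted to the log2(normalized count + 1) of the 4 libraries over all genes, called 2 of the 9, DUSP1 and DUSP2, beside 1.52% of all genes called higher and 4.10% called in either direction. Without limma's mean-variance trend neither passed (adjusted p = 0.0696 for DUSP1 and 0.0587 for DUSP2). In that fit 0.153% of all genes passed, in either direction. In bulk RNA a change in the share of cells that transcribe a gene and a change in RNA per cell cannot be told apart.

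**Figure D2:**
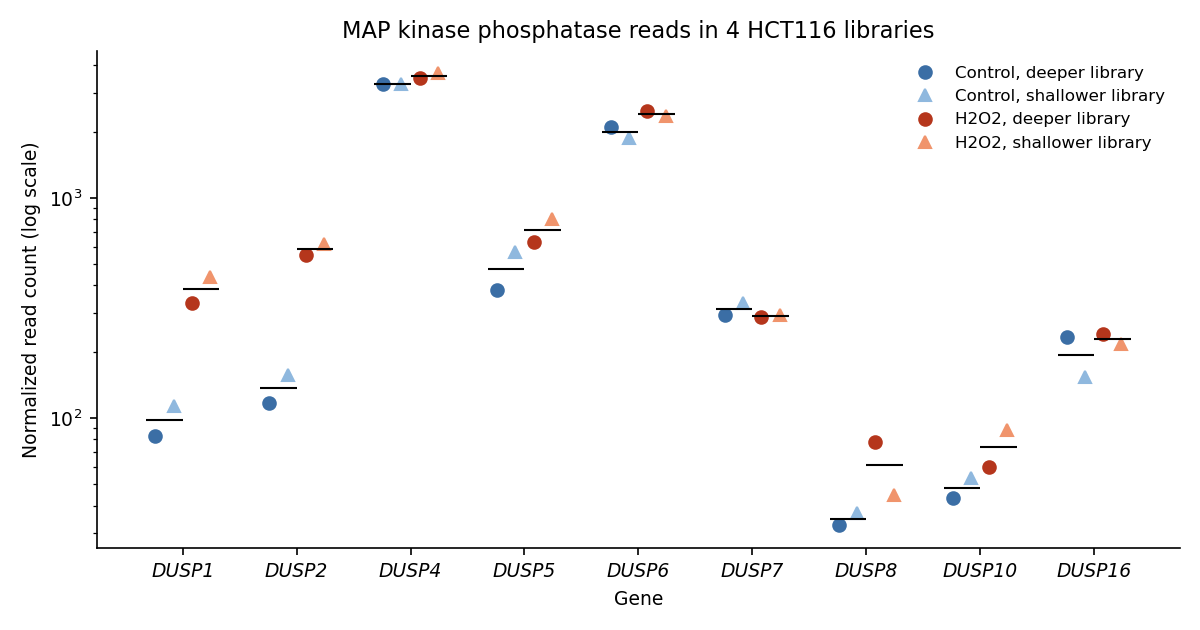
Normalized read counts of the 9 genes (log axis) in each library, with blue for Control, red for H2O2, circles for the deeper and triangles for the shallower library, and black lines at the group means. DUSP1 and DUSP2 show the widest gaps between groups, and the groups overlap for DUSP7 and DUSP16.

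DUSP2, a nuclear phosphatase first described in activated lymphocytes, had the largest fold change of the 9. Its reads numbered 122 and 153 in the deeper and shallower Control libraries and 568 and 596 in the H2O2 libraries. Both H2O2 libraries were thus far above both controls, which differed from each other 1.34-fold after normalization. The mean normalized count went from 137 ± 28.4 to 584 ± 50.7 (SD, n = 2 each). In the authors' deposited table this is a 4.26-fold rise (adjusted p = 1.07e-36), and limma gave a rise of 2.10 ± 0.15 on the log2 scale (SE, adjusted p = 1.48e-06).

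DUSP1, a nuclear phosphatase that acts on p38, JNK and ERK, rose almost as far. It had 86 and 111 reads in the deeper and shallower Control libraries against 344 and 421 with H2O2. The groups did not overlap, and within each group the shallower library was the higher. Mean normalized counts were 98.2 ± 22.3 in Control and 385 ± 74.8 with H2O2 (SD, n = 2 each). The rise was 3.92-fold in the authors' deposited table (adjusted p = 1.75e-27) and 1.97 ± 0.18 on the log2 scale in limma (SE, adjusted p = 2.41e-05).

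Because DUSP2 is known from lymphocytes, marker genes of blood cells were read in the same libraries. Of 6 leukocyte markers, CD14 and CD68 were listed, and the defining markers PTPRC, CD3E and LYZ were not among the listed genes, whose lowest mean was 5.46. The summed normalized count of the listed pair was 8.63 to 17.5 in Control and 22.9 to 27.0 with H2O2. CD14 had 5 and 3 Control reads and 19 and 10 with H2O2, a rise in the authors' deposited table (adjusted p = 0.0270) that limma did not call (adjusted p = 0.0794). Its mean was 3.94 in Control and 14.4 with H2O2, and a marker at that Control level in both groups would fall below the lowest listed mean. CD14 thus cleared that floor only through its H2O2 level, and nothing is drawn from its rise or from the pair's sum. The part of such cells in the DUSP2 result was not tested.

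DUSP5, a nuclear phosphatase that acts on ERK, was higher with H2O2 by a smaller margin. The deeper and shallower Control libraries had 399 and 555 reads and the H2O2 libraries 651 and 767. After normalization the controls stood at 382 and 569.7 and the H2O2 libraries at 628 and 798, so the shallower control came close to the deeper H2O2 library without reaching it. DUSP5 rose by 0.58 on the log2 scale per the authors' deposited table (adjusted p = 9.29e-04). limma gave 0.60 ± 0.17 on the log2 scale (SE) and did not call it (adjusted p = 0.0563). Leaving out a control moved that value to 0.31 without the deeper and 0.89 without the shallower, and it was 0.77 without the deeper and 0.43 without the shallower H2O2 library.

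DUSP4, the remaining nuclear member, acts on ERK and JNK and had the most reads of the 9 in every library. Counts were 3442 and 3189 in the deeper and shallower Control libraries and 3634 and 3532 with H2O2. Both H2O2 libraries lay above both controls, by a small step: the normalized means were 3286 ± 18.2 and 3591 ± 117 (SD, n = 2 each). It was not called in the authors' deposited table, at 1.09-fold (adjusted p = 0.662), or in limma, at 0.13 ± 0.11 on the log2 scale (SE, adjusted p = 0.529).

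Among the cytoplasmic members, DUSP6 is the ERK-selective phosphatase whose transcript is widely read as a gauge of ERK activity. It had 2191 and 1829 reads in the deeper and shallower Control libraries and 2554 and 2269 with H2O2. The groups did not overlap after normalization (2100.1 and 1877 against 2465 and 2360.1). At 1.21-fold it was not called in the authors' deposited table (adjusted p = 0.198), nor in limma at 0.28 ± 0.11 (SE, log2 scale, adjusted p = 0.164). limma called it without the deeper Control library (0.36, adjusted p = 7.09e-04) and in none of the other 3 fits with a library left out. DUSP6 counts are uncertain because 40.5% of its annotated exonic bases overlap an antisense gene, AC024909.2, and no source used here says whether reads were counted by strand.

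DUSP7, the other cytoplasmic ERK phosphatase, was the 1 member with a ratio below 1. Reads were 306 and 324 in the deeper and shallower Control libraries and 299 and 283 with H2O2, and the groups overlapped. The authors' deposited table puts it at 0.931 of the Control mean (adjusted p = 0.796) and at -0.10 ± 0.13 on the log2 scale in limma (SE, adjusted p = 0.707). DUSP9, a cytoplasmic relative outside the 9 genes, had 164 and 151 Control reads and 175 and 150 with H2O2. It stood at 0.058 on the log2 scale per the authors' deposited table (adjusted p = 0.922).

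DUSP8, DUSP10 and DUSP16 prefer JNK and p38. DUSP8, which had the fewest reads of the 9 in Control, had 34 and 36 reads in the deeper and shallower Control libraries, and 81 and 43 with H2O2. The controls were alike, while the H2O2 libraries differed 1.75-fold from each other after normalization. DUSP8 rose 1.77-fold in the authors' deposited table, just inside the threshold (adjusted p = 0.0486). limma did not call it, at 0.75 ± 0.28 on the log2 scale (SE, adjusted p = 0.146), and gave 0.36 with the deeper H2O2 library left out, against 1.15 with the shallower left out. The size of the DUSP8 change thus depended on which H2O2 library was read.

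DUSP10 went from 45 and 52 reads in the deeper and shallower Control libraries to 62 and 85 with H2O2. The groups did not overlap, but the gap between the nearest libraries was small, 53.4 against 59.8 normalized counts. Its 1.54-fold ratio was not called in the authors' deposited table (adjusted p = 0.142), nor did limma's 0.59 ± 0.24 on the log2 scale (SE, adjusted p = 0.190). That value was 0.87 with the deeper H2O2 library left out, against 0.31 with the shallower left out.

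DUSP16 had 244 and 150 reads in the deeper and shallower Control libraries and 249 and 209 with H2O2. The deeper control lay between the H2O2 libraries, and the controls differed more from each other than the group means did. The ratio was 1.18 in the authors' deposited table (adjusted p = 0.467), and limma gave 0.27 ± 0.18 on the log2 scale (SE, adjusted p = 0.421). Without the shallower control the value was -0.033, and without the deeper it was 0.57 and passed (adjusted p = 0.0102).

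**Figure D3:**
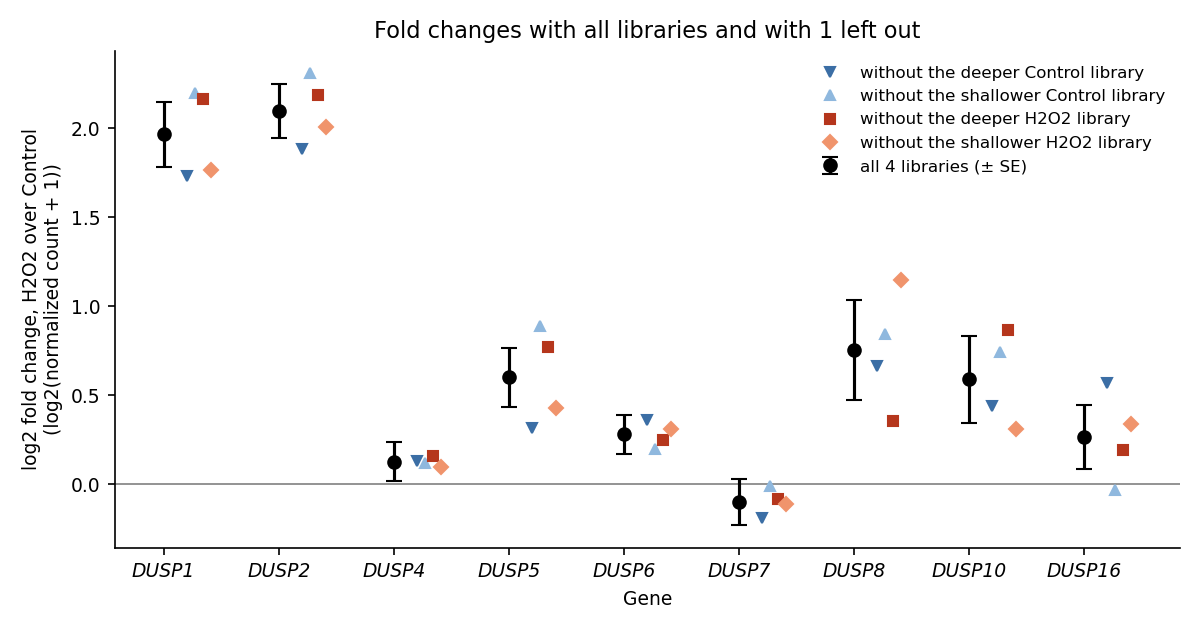
log2 fold changes of the 9 genes in limma with all 4 libraries (black, ± SE) and with each library left out (coloured symbols). DUSP1 and DUSP2 stay between 1.73 and 2.31 in all fits, while DUSP16 runs from -0.033 to 0.57.

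DUSP1 and DUSP2 were called by limma in all 4 fits that left out a library, DUSP5 in 3, DUSP8 in 2, DUSP6, DUSP10 and DUSP16 in 1 each, and DUSP4 and DUSP7 in none. Of all genes, limma called 8.52% when the deeper Control library was left out and 22.2% when the shallower one was. Leaving out the deeper H2O2 library gave 1.73%, and leaving out the shallower H2O2 library 3.13%. The single calls of DUSP6 and DUSP16 came without the deeper control and that of DUSP10 without the shallower. Between the untreated libraries, 6 of the 9 members were higher in the shallower one, DUSP5 by 0.57, DUSP1 by 0.47 and DUSP2 by 0.43 on the log2 scale. The median difference of the 9 was 0.18, and over all genes it was 0.0094. The rises of DUSP1 and DUSP2 with H2O2 were far larger than their own differences between controls, and that of DUSP5 was about as large as its own.

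To compare the genes with each other, normalized counts were divided by the kilobases of annotated exon (kb). In Control the order was DUSP4 (453 ± 2.51 per kb, SD, n = 2), DUSP6 (429 ± 34.0), DUSP5 (182 ± 50.6), DUSP2 (70.9 ± 14.7), DUSP7 (55.4 ± 4.92), DUSP1 (48.6 ± 11.0), DUSP16 (33.9 ± 9.87), DUSP10 (16.6 ± 2.49) and DUSP8 (7.53 ± 0.669). The libraries of DUSP4 and DUSP6 overlapped, as did those of DUSP7 and DUSP1 and, narrowly, of DUSP1 and DUSP16. The place of DUSP6 in either group is uncertain, because of the antisense gene that overlaps its exons. With H2O2 DUSP2 stood at 302 ± 26.2 per kb (SD, n = 2), overlapping DUSP5 (273 ± 45.8), and DUSP1 at 191 ± 37.1 came next. DUSP6 (521 ± 16.1) and DUSP4 (495 ± 16.2) were the highest, and DUSP7 (51.6 ± 0.719), DUSP16 (40.0 ± 2.84), DUSP10 (25.4 ± 6.93) and DUSP8 (13.3 ± 5.13) the lowest. With the longest transcript as the length, a choice made after seeing the data, DUSP4 led in both groups (594 and 649 per kb) and DUSP7 (93.7) passed DUSP2 (81.2) in Control.

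The summed level of the 9 genes was 1270.3 and 1324 per kb in the deeper and shallower Control libraries and 1835 and 1989 with H2O2. DUSP4 and DUSP6 made up 71.5% and 64.7% of it in Control and 55.4% and 51.1% with H2O2. DUSP1 and DUSP2 together went from 7.98% and 10.4% to 24.4% and 27.0%. The gain was largest in DUSP2, by 231 per kb, and DUSP1, by 142, followed by DUSP6 (91.5) and DUSP5 (90.6). The sum, all shares and the DUSP6 gain carry the uncertainty of the DUSP6 counts, whose exons overlap an antisense gene. The members that prefer JNK and p38 held 4.02% to 4.94% of the sum in Control and 3.92% to 4.33% with H2O2.

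**Figure D4:**
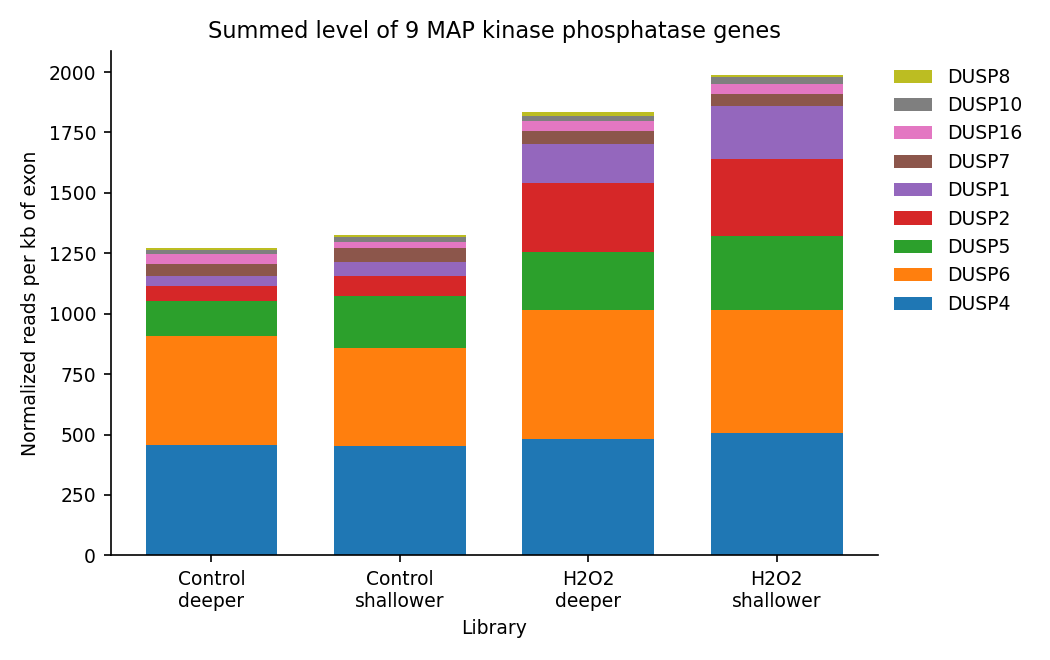
Normalized reads per kb of annotated exon for each of the 9 genes, stacked, in the 4 libraries. The DUSP1 (purple) and DUSP2 (red) blocks widen with H2O2, from 7.98% and 10.4% of the stack in Control to 24.4% and 27.0%, and the DUSP4 and DUSP6 blocks stay the thickest.

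Likeness to other genes was measured over the 4 libraries as the root mean square distance between log2(normalized count + 1) profiles, each centred on its own mean, among 12118 genes with a mean of at least 50. The nearest profile to DUSP1 was that of DUSP2 (0.10), and the reverse held too. Next came NR4A1, an orphan nuclear receptor, for DUSP1 (0.16) and JUN, a subunit of AP-1, for DUSP2 (0.15). NR4A1 had 340 and 429 Control reads and 1196 and 1248 with H2O2, and JUN 307 and 384, then 1516 and 1931. DUSP5 was nearest to METTL21B (0.063) and to ARRDC3, an alpha-arrestin (0.073), and DUSP8 to KRCC1 (0.055). KRCC1 shared with DUSP8 its gap between the H2O2 libraries, at 185 and 107 reads. Profiles over so few points share library and treatment, and no function is read from them.

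Other genes of the pathway were read from lists drawn up by function, whose counts stand beside the 7.19% of all genes called in either direction. The atypical dual-specificity phosphatases are mostly small enzymes that lack the kinase-docking domain. Of 14 listed, 1 was higher in the authors' deposited table and 13 did not pass, with a median log2 fold change of 0.12. The 1 was STYXL1, a catalytically inactive relative, with 227 and 253 Control reads and 340 and 317 with H2O2. It rose 1.38-fold in the authors' deposited table (adjusted p = 0.0407) but did not pass in limma (0.0694).

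The next lists hold the kinases that these phosphatases act on and the kinases upstream of them. Of 14 MAP kinase genes 1 was lower in the authors' deposited table and 13 did not pass, with a median log2 fold change of -0.15. MAPK15, an atypical MAP kinase, had 275 and 382 Control reads and 198 and 203 with H2O2, and its ratio was 0.614 in the authors' deposited table (adjusted p = 5.78e-04, limma 0.0379). Among 6 listed MAP kinase kinases MAP2K2, an activator of ERK, was lower by the same test and 5 did not pass. MAP2K2 had 209 and 235 Control reads and 138 and 129 with H2O2, a ratio of 0.606 in the authors' deposited table (adjusted p = 0.00168, limma 0.0183). Per the authors' deposited table, the ERK gene MAPK3 stood at 0.17 on the log2 scale. The p38 genes MAPK11 and MAPK14 stood at -0.37 and -0.19, and none of these passed the threshold. Before adjustment, 3 MAP kinase genes had p under 0.05 in the authors' test, MAPK11, MAPK12 and MAPK15, each lower. So did 2 MAP kinase kinases, MAP2K2 lower and MAP2K3 higher, beside 19.6% of all genes in either direction.

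Of 9 other phosphatases that act on MAP kinases, PPM1D was higher and 8 did not pass (median 0.061 in the authors' deposited table). Before adjustment, 2 of the 9 had p under 0.05 in the authors' test, PPM1D higher and PTPN1 lower, beside 19.6% of all genes. PPM1D, which encodes the p53-induced phosphatase WIP1 and acts on p38, went from 369 and 371 reads to 552 and 513, 1.45-fold in the authors' deposited table (adjusted p = 0.00488, limma 0.0186). None of 9 other ERK feedback inhibitors passed in the authors' deposited table or in limma. Before adjustment, 2 of them had p under 0.05 in the authors' test, ERRFI1 and PEBP1, each higher, beside 19.6% of all genes in either direction. limma also had 2 before adjustment, a rule for which its share over all genes was not counted. The median of the 9 was -0.067 on the log2 scale per the authors' deposited table. SPRY2 and SPRY4, Sprouty inhibitors of receptor signalling, had log2 fold changes of 0.024 and -0.067 there, and ERRFI1, an inhibitor of the EGF receptor, had 0.37 (adjusted p = 0.0691 in the authors' deposited table).

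Of 10 ERK transcriptional output genes, FOSL1 and EGR1 were higher and 8 did not pass, with a median of 0.16 in the authors' deposited table. Before adjustment, 3 of the 10 had p under 0.05 in the authors' test, FOSL1 and EGR1 higher and MYC lower. By that rule 19.6% of all genes passed in either direction. FOSL1, an AP-1 subunit, had 277 and 475 Control reads and 602 and 600 with H2O2 and rose 1.60-fold in the authors' deposited table (adjusted p = 9.06e-05, limma 0.0494). EGR1, a zinc finger factor, had 2647 and 3791 Control reads and 4730 and 4224 with H2O2. It rose 1.39-fold in the authors' deposited table (adjusted p = 0.00855) but did not pass in limma (0.0806). ETV4 and ETV5, ETS factors that follow ERK, stood at 0.13 and 0.014 on the log2 scale per the authors' deposited table and did not pass. Whether the phosphatases differed from these lists was not tested.

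**Figure D5:**
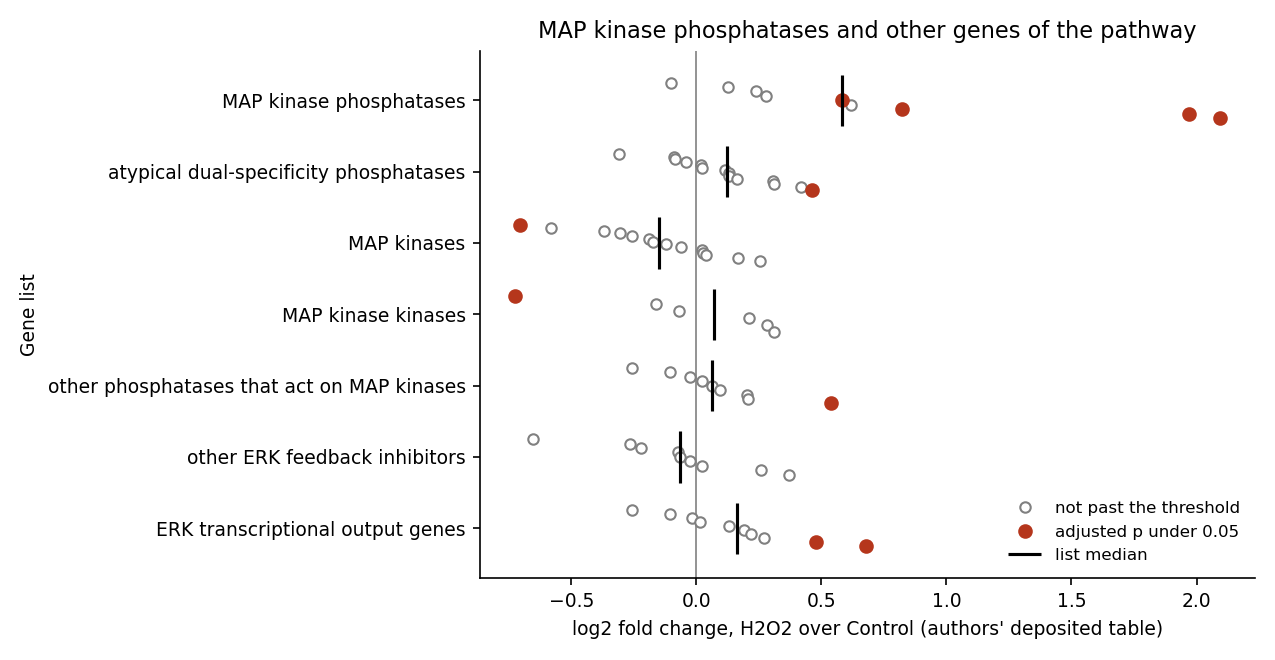
log2 fold changes with H2O2 over Control in the authors' deposited table for the MAP kinase phosphatases and 6 other gene lists, 1 point per gene. Filled points passed an adjusted p under 0.05 and black bars are list medians; DUSP2 and DUSP1, at 2.09 and 1.97, lie apart from all other points.

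The 4 libraries held 6858809 to 7365032 reads over the listed genes. Of 9 colon epithelium markers 8 were listed and none passed in the authors' deposited table or limma. At an unadjusted p under 0.05 there were 2 in the authors' test (EPCAM and KRT8, each higher), beside 19.6% of all genes in either direction. By that rule limma also had 2, and its share over all genes was not counted. The summed normalized count of the 8 was 7596 to 9026 in Control and 9023 to 9432 with H2O2. EPCAM had 1687 to 2163 reads per library, and CDX1 was not among the listed genes. Of 6 fibroblast markers 3 were listed, summing to 933 to 1017 in Control and 754 to 813 with H2O2, with COL1A1 lower in the authors' deposited table (adjusted p = 0.0211). KDR was the 1 of 4 endothelium markers listed, at 6.16 to 6.71 normalized counts in Control and 8.32 to 13.5 with H2O2.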

How the data were processed

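RNA-seq was made from 2 Control and 2 H2O2 samples of HCT116 cells. Build hg19 and the tools STAR, HTSeq, DESeq, Trim Galore, FastQC and CASAVA 1.8 are listed, with no settings, per the submitters' processing notes. For annotation release and strandedness the sources used here give nothing. The deposited table holds, per the file headers, a signal (the authors' mean of counts divided by size factors, per group and over all libraries), the authors' fold ratio, its log2, and the authors' p-value with its Benjamini-Hochberg adjustment.

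Each group mean was solved for 2 whole counts. For both groups 1 solution within 1e-09 existed for each of 16376 genes, and size factors recomputed from the counts differed from the recovered ones by at most 9.1e-15. The main test is the authors', at an adjusted p under 0.05 over all genes. limma 3.58.1 (R 4.3.3, mean-variance trend, log2(normalized count + 1), Benjamini-Hochberg adjustment) was run on the recovered libraries of all genes. The recovery and the limma fit were also run on simulated data, and the outcome is not reported here. That simulation set the spread from each gene's mean, by the same rule in both groups. Fold changes on the log2(value + 1) scale understate low genes, and read number limits their precision. Leaving out a library leaves its group with a lone library, assumed to vary like the other group.

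Exon lengths, overlaps and shared 75-base words came from GENCODE 29 (GRCh38), matched by symbol for all 9 members. At most 0.364% of a member's words occurred in other genes' transcripts. The members, the lists and the rules were chosen with earlier results of these data known. Named genes are all members, other list genes past the authors' threshold, and for each member past it the 2 genes with the nearest profile. Other genes were named after their values were seen, and a few genes under these rules are left unreported. The other settings tried were pseudocounts of 0.5 and 5, a mean of at least 50, upper quartile and per-million scaling, no trend, a threshold of 0.01 and each library left out.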

Additional observations from a re-analysis of the deposited data

How the results depend on the processing

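The authors' test called 4 members higher, 3 at an adjusted p under 0.01 (DUSP8 was lost; 3.92% of all genes passed), and limma called 2. limma's count stayed at 2 with pseudocounts of 0.5 and 5, with genes of a mean of at least 50 and with per-million scaling, was 3 with upper quartile scaling, which added DUSP5 (adjusted p = 0.0444), and ran from 3 to 5 with a library left out. It was 0 with no mean-variance trend, where 25 of all genes passed and DUSP1 and DUSP2 had adjusted p = 0.0696 and 0.0587 at unchanged fold changes. Of all genes, limma called 4.05% and 4.18% with pseudocounts of 0.5 and 5, in either direction. The share was 4% with upper quartile scaling and 4.09% with per-million scaling. Among genes with a mean of at least 50 it was 3.8%. No member was called lower in any of these fits. The median log2 fold change of the 9 genes, 0.58 from the authors' means, ran from 0.31 to 0.78 with a library left out, and was 0.60 and 0.57 with upper quartile and per-million scaling. DUSP16 changed sign without the shallower Control library (-0.033, adjusted p = 0.914). Of 89 limma values of single members under these settings, 77 kept direction and call, 9 gained a call, 2 lost one and 1 changed sign. Without the shallower Control library 22.2% of all genes passed in limma, against 4.10% with all libraries and 1.73% without the deeper H2O2 library, so calls gained there rest on a spread taken from 1 group. No paired analysis was possible because the table carries no replicate numbers for the recovered libraries. At 34 to 85 reads per library, DUSP8 and DUSP10 are the members that depth limits most.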
